A study of Arabidopsis thaliana with 47 samples.

Results

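The genes described here encode the nuclear small subunit of Rubisco, Rubisco activase and enzymes of the Calvin cycle. They were taken by locus from the RBCS family and the pathway, with no threshold on their values, and are 10 of the 28197 loci listed in the count tables. The 4 small subunit genes are RBCS1A (AT1G67090), RBCS1B (AT5G38430), RBCS2B (AT5G38420) and RBCS3B (AT5G38410). The other 6 are RCA (AT2G39730), PRK (AT1G32060), GAPA (AT3G26650), GAPB (AT1G42970), SBPASE (AT3G55800) and CFBP1 (AT3G54050). All 10 passed the filter on low counts in each experiment.

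Rubisco fixes CO2 in the chloroplast stroma and is assembled from a large subunit encoded by the plastid genome and a small subunit encoded by a nuclear RBCS family. RCA is the activase that frees Rubisco sites of bound sugar phosphates, PRK makes the CO2 acceptor ribulose-1,5-bisphosphate, GAPA and GAPB are subunits of the chloroplast glyceraldehyde-3-phosphate dehydrogenase, and SBPASE and CFBP1 are the chloroplast phosphatases of the regenerative phase. In leaves these genes are expressed mainly in mesophyll, and their transcription is known to respond to light, sugar and chloroplast state through promoter elements that include the G-box and the I-box.

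The study sequenced mRNA in 47 libraries of Arabidopsis thaliana Columbia-0 to follow leaf mesophyll protoplasts as they re-entered the cell cycle and formed callus. Intact leaves or freshly isolated protoplasts (Day 0) came from plants at 23 days after sowing, and the protoplasts were cultured in the dark in alginate gels with 1 mg/L of the synthetic auxin 2,4-D and 176 µg/L of the cytokinin thidiazuron, with glucose and mannitol in the medium. Replicates 1 to 3 held cultures of Day 14 with MB-3, an inhibitor of histone acetyltransferases, cultures of Day 14 without it (control), Day 0 protoplasts and leaves, with 3 libraries each. Replicates 4 to 8 held cultures with yucasin, an inhibitor of auxin synthesis by YUCCA enzymes, and with MB-3 at Days 4 and 6, controls at Days 2, 4 and 6, all with 3 libraries each, and 5 Day 0 libraries. Within these, cultures of Days 2 and 4 carried replicate numbers 4 to 6 and cultures of Day 6 numbers 6 to 8. Comparisons of Day 6 with Days 2 and 4 are thus also comparisons between largely different replicates. Replicates 9 to 11 held 3 libraries each of Day 4 cultures without 2,4-D, Day 4 controls and Day 0. Whole gels were harvested, so that a culture library mixes cells at different stages. A lower level in such bulk samples can come from fewer cells of a type or from less RNA per cell, and these cannot be told apart here.

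Libraries held between 4.34 M and 19.1 M mapped reads. Levels are given as CPM, counts per M counts of a library whose size was adjusted with TMM, the trimmed mean of M values. At Day 0 of replicates 1 to 3 the summed level of 10 mesophyll markers lay between 2400 and 6444 CPM, against 14.9 to 40.5 CPM for 6 epidermis markers, 4.2 to 7.2 CPM for 5 guard cell markers and 21.5 to 38.0 CPM for 9 vascular markers. In leaves these sums were 28440 to 88582, 360.3 to 483, 77.2 to 142 and 1499 to 1743 CPM. The TMM factors of Day 0 libraries lay between 0.495 and 0.673 while those of the other libraries lay between 0.909 and 1.39. With scaling by total counts the median of all loci shifted by -1.03 on the log2 scale for Day 0 against leaf, and by 0.76 to 1.304 for cultures against Day 0, so levels relative to Day 0 depend on the scaling.

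The RBCS copies share sequence, which bears on how far their counts can be kept apart. RBCS1A lies on chromosome 1 (TAIR10.1 build, chr1:25048158-25049667, minus strand), while RBCS1B (chr5:15383167-15385320), RBCS2B (chr5:15380907-15382071) and RBCS3B (chr5:15377173-15378642) lie side by side on the minus strand of chromosome 5 and are called the B copies below. Over the coding sequence the B copies were 96.7% to 97.25% identical to each other and 89.93% to 90.11% identical to RBCS1A. The first 30 coding bases of the RefSeq sequences are shown because they hold both the shared and the differing letters, with capitals marking letters that differ from RBCS1A (RBCS1A at chr1:25049220-25049249, RBCS1B at chr5:15385126-15385155, RBCS2B at chr5:15381949-15381978 and RBCS3B at chr5:15378277-15378306).
RBCS1A: atggcttcctctatgctctcttccgctact
RBCS1B: atggcttcctctatgctctcCtcTgcCGct
RBCS2B: atggcttcctctatgTtctcCtccAcCGct
RBCS3B: atggcttcctctatgctctcCtccgcCGct
All 3 B copies differed from RBCS1A at 3 to 5 of these letters, and 3 of the changed letters were common to all B copies. Of the 50-base windows of each mRNA, 1.477% in RBCS1A, 13.98% in RBCS1B, 21.44% in RBCS2B and 18.26% in RBCS3B also occurred in another gene, and none did in the other 6 members. Reads from such windows are lost from the counts where only unique matches are kept and can otherwise be exchanged among the copies, and both bear more on the B copies than on RBCS1A. The values of a single B copy are uncertain to that extent, and those of the B copies as a group are less so.

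The upstream sequences are shown because 6 of the 10 genes shared a G-box (CACGTG, on either strand) in the 250 bases before the most downstream annotated start, as did 6.67% of 27442 windows of this kind in the genome. Each stretch runs 5′ to 3′ along the gene's strand in TAIR10.1 (RefSeq), and capitals mark the G-box and, where present, the I-box core GATAAG or its reverse complement (RBCS1A at chr1:25049491-25049520, RBCS2B at chr5:15382177-15382206, RBCS3B at chr5:15378506-15378535 and RCA at chr2:16573579-16573608 on the minus strand, PRK at chr1:11532014-11532043 and CFBP1 at chr3:20016803-20016832 on the plus strand).
RBCS1A: ggaattatcttcCACGTGgcattattccag
RBCS2B: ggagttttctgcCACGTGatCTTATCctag
RBCS3B: ggagttttctgcCACGTGgcCTTATCctag
RCA: ataaacatattcCACGTGgaccaatcaaaa
PRK: attagaatctccCACGTGtcaattcaaata
CFBP1: taagagcaaagcCACGTGtcataacacaag
The G-box began 77 bases before the start in RCA and CFBP1, 84 in RBCS1A, 107 in RBCS3B, 123 in RBCS2B and 173 in PRK. In RBCS1A, RBCS3B and RCA the stretch lies inside the span of the mRNA model of the lowest-numbered variant, which begins further upstream than that start. The I-box core was found in all 4 RBCS windows and in CFBP1, against 12.6% of all windows. Both motifs occurred together in 4 of the 10 windows, against 0.995% of all windows. The GT-1 letters GGTTAA occurred in 0 of the 10, against 14.3% of all windows. The stretches of RBCS2B and RBCS3B, genes that lie side by side, are nearly the same. The 10 windows are thus not independent, and the shares are no test of enrichment. All these are matches of letters in one window and no binding was measured.

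The first comparison asked how far the genes differed between isolated protoplasts and intact leaves. The labels do not say whether these leaves were the source of the protoplasts. According to the paper, leaves also hold epidermis and vascular cells without chloroplasts, so it drew no quantitative comparison with protoplasts. All 10 were lower at Day 0 than in leaf. RBCS1A had 923, 518 and 1325 CPM at Day 0, against 8356, 5277 and 8389.8 CPM in leaf, a log2 fold change of -2.99 ± 0.53 (SE, edgeR's quasi-likelihood test with Benjamini-Hochberg adjustment, adjusted p = 0.000248, n = 3 each). PRK had 64.8, 31.9 and 124 CPM at Day 0 and 889, 472 and 1037 CPM in leaf, which was the largest difference among the members (-3.44 ± 0.50, adjusted p = 4.73e-05). The smallest was that of GAPA, with 269, 149 and 288 CPM at Day 0 and 1208, 578 and 911 CPM in leaf (-1.93 ± 0.33, adjusted p = 0.000176).

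With the study's thresholds (log2 fold change over 2 in size, p and adjusted p under 0.01), 8 of the 10 were called lower at Day 0, against 22.4% of all loci tested, and 9 of the 10 passed the adjusted p alone, against 33.2% of all loci. The exceptions were GAPA, which passed the p but not the fold, and RBCS3B (-2.35 ± 0.95, adjusted p = 0.0404). RBCS3B had 689.9, 308 and 1383 CPM at Day 0 and 5190.1, 2681 and 4256 CPM in leaf. Its Day 0 libraries differed among themselves by a larger factor than the leaves did. This also held for RBCS1B (159 to 725 CPM at Day 0) and RBCS2B (126 to 588 CPM), which passed the adjusted p. In a fit of Day 0 and leaf alone all 10 passed it. The members' median log2 fold change was -2.74, against -0.56 over all loci. Without replicate 1 only 3 members were called and 4 passed the adjusted p.

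**Figure D1:**
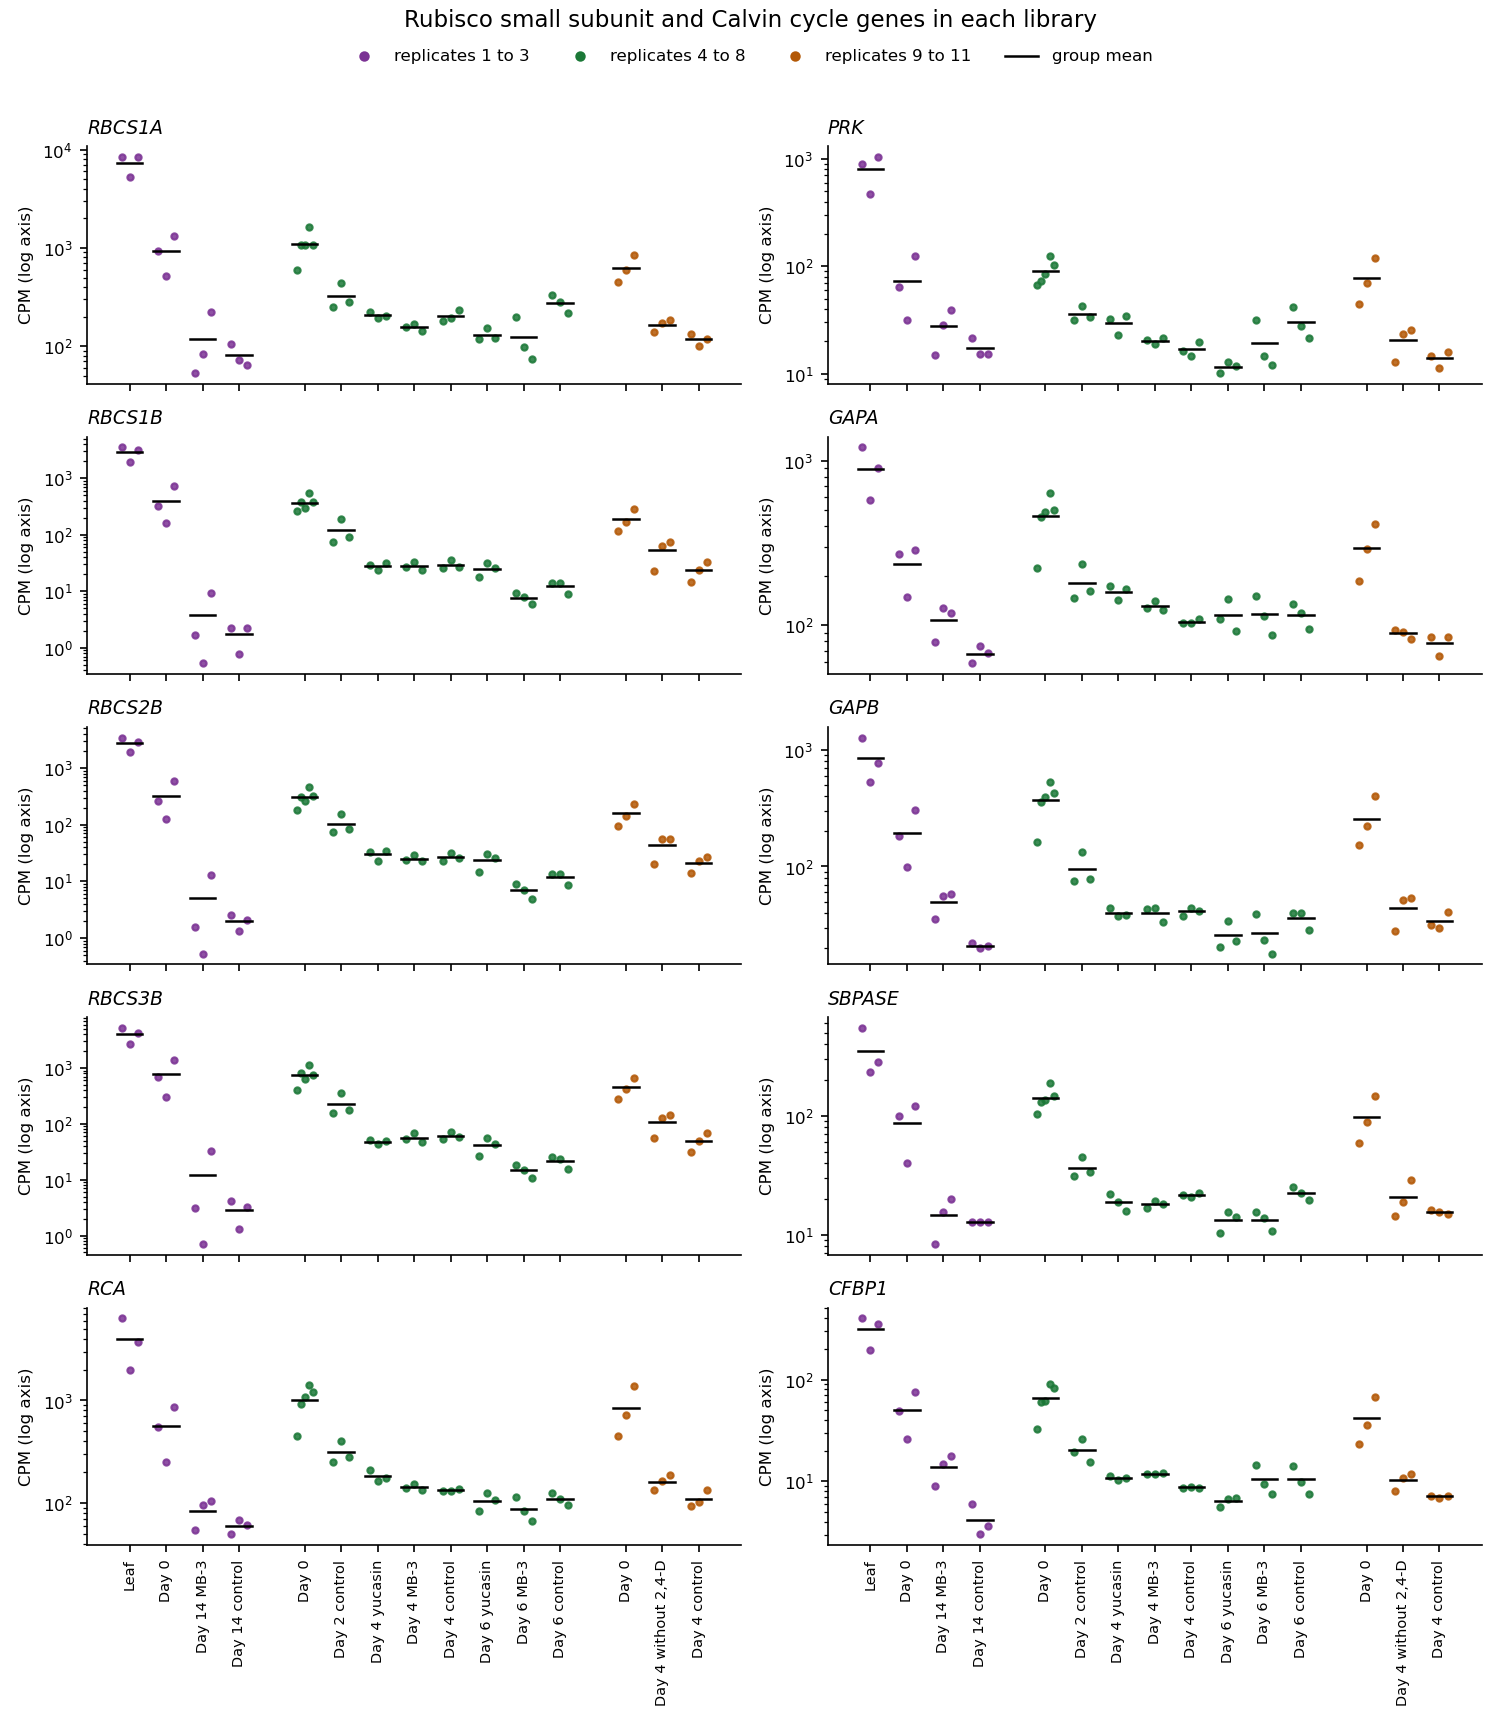
Level of each of the 10 genes in every library, in CPM on a log axis, with leaf and Day 0 at the left and the cultures in order of time; points are libraries coloured by experiment and bars are group means. In Day 14 controls RBCS1B, RBCS2B and RBCS3B lie at 4.10 CPM or less while RBCS1A lies at 64.7 CPM or more.

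Over the first 6 days of culture all 10 genes stayed below their Day 0 levels, and they declined together up to Day 2. RBCS1A had 596, 1081, 1067, 1642 and 1077 CPM at Day 0, 249, 443 and 284 CPM at Day 2, 183, 192 and 233 CPM at Day 4 and 334, 281 and 217 CPM at Day 6. RBCS1B had 259.8, 381, 304, 540.2 and 379 CPM at Day 0, 75.3, 194 and 92.1 CPM at Day 2, 25.7, 36.5 and 27.2 CPM at Day 4 and 14.1, 14.2 and 8.97 CPM at Day 6. RBCS1A at Day 6 overlapped in range with Day 4, while RBCS1B was lower in each later group without overlap.

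At Day 2 against Day 0 the log2 fold changes of the 10 lay between -1.98 (GAPB) and -1.35 (PRK and GAPA). All 10 passed the adjusted p alone, against 30.3% of all loci lower, and 0 of 10 passed the fold as well, against 4.78%. The 4 RBCS copies lay close to each other, at -1.75 ± 0.29 for RBCS1A, -1.64 ± 0.28 for RBCS1B, -1.57 ± 0.28 for RBCS2B and -1.69 ± 0.30 for RBCS3B. GAPA overlapped in range between the days, with 146, 235 and 162 CPM at Day 2 and 222 to 638 CPM (median 489) at Day 0.

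At Day 4 all 10 were called lower than Day 0, against 13.1% of all loci, with log2 fold changes from -3.65 (RBCS1B) to -2.13 (GAPA). The fitted values of the B copies were now below that of RBCS1A, at -3.65 ± 0.31, -3.51 ± 0.31 and -3.61 ± 0.34 for RBCS1B, RBCS2B and RBCS3B and -2.43 ± 0.30 for RBCS1A. The same comparison in replicates 9 to 11 gave -2.99 ± 0.50, -2.91 ± 0.46 and -3.19 ± 0.46 for the B copies and -2.42 ± 0.28 for RBCS1A, and 9 of the 10 were called, against 11.1% of all loci. Only 4 were called with scaling by total counts in replicates 4 to 8 and 1 in replicates 9 to 11. No member passed the test of the difference between these 2 experiments, whose values lay between -0.11 (PRK) and 0.59 (RBCS1B) with an SE of 0.40 to 0.81 (adjusted p from 0.881 to 1, edgeR's quasi-likelihood test). Of all loci 0.00474% passed lower and 0.00474% higher, and 0 members had an unadjusted p under 0.05.

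At Day 6 against Day 0, 7 of the 10 were called lower, against 16.3% of all loci, and all 10 passed the adjusted p alone, against 35.9%. The B copies stood at -4.91 ± 0.33 (RBCS1B), -4.71 ± 0.34 (RBCS2B) and -5.11 ± 0.37 (RBCS3B), which are 30.0-fold, 26.1-fold and 34.5-fold lower levels. RBCS1A was 3.94-fold lower at -1.98 ± 0.29, and PRK (-1.57 ± 0.26) and GAPA (-1.99 ± 0.25) also missed the fold. Of the remaining genes, GAPB (-3.37 ± 0.32) and RCA (-3.21 ± 0.28) had larger fitted decreases than SBPASE (-2.66 ± 0.18) and CFBP1 (-2.64 ± 0.26). The summed level of vascular markers was 158 to 170.4 CPM in Day 6 controls and 13.0 to 33.6 CPM at Day 0. Single markers moved both ways, with 3 of the 7 tested higher and 3 lower. Of all loci 45.4% were higher and 35.9% lower by adjusted p. The part of these markers in the values of the members was not tested.

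**Figure D2:**
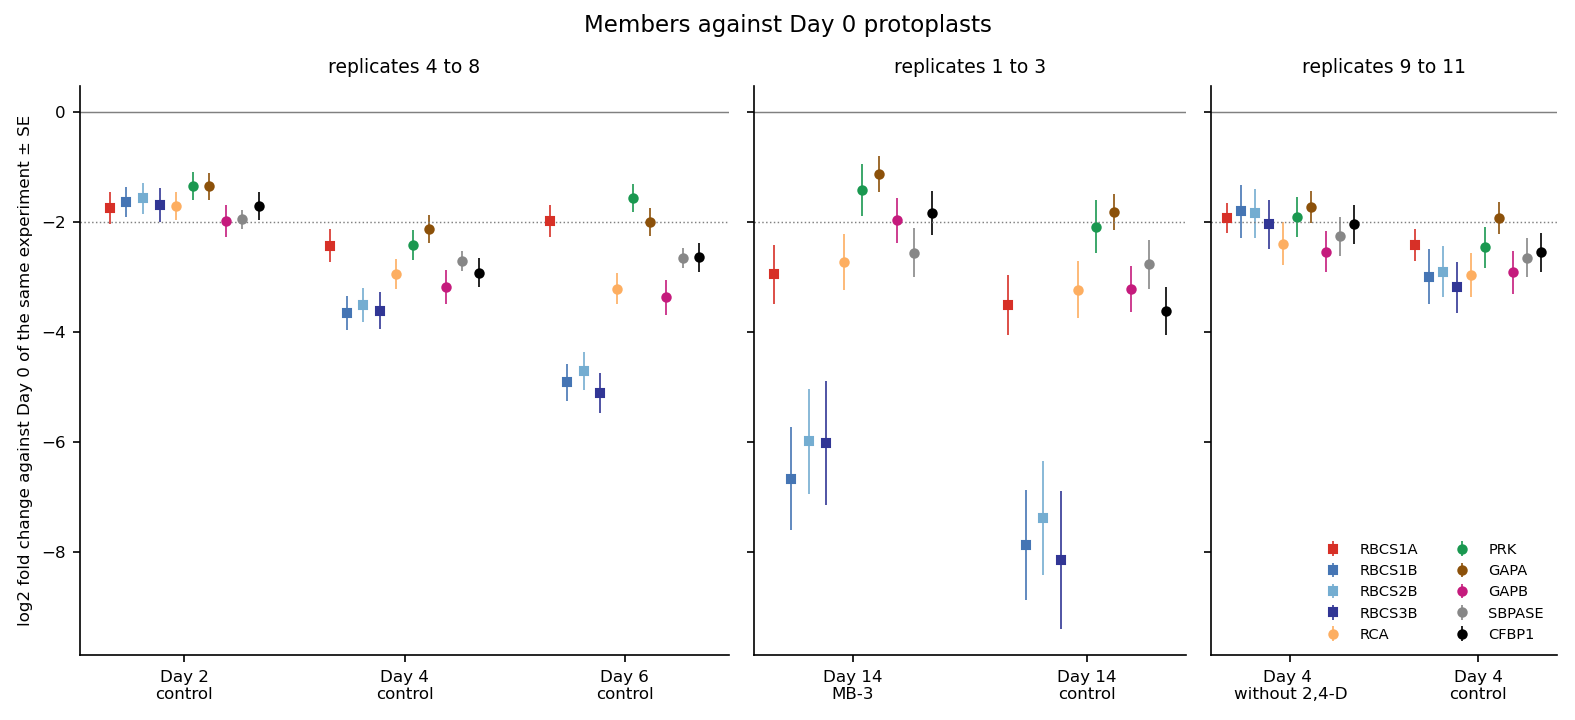
Log2 fold change of each member against Day 0 of its own experiment, with SE as bars, for each culture group in order of time; squares are RBCS copies, circles the other genes and the dotted line marks a log2 fold change of -2. The RBCS copies lie together at Day 2 and apart at Day 6, where RBCS1A is at -1.98 and the B copies at -4.71 to -5.11.

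Each gene was also compared between successive days. From Day 2 to Day 4 RBCS1B fell by 2.01 on the log2 scale (adjusted p = 7.46e-06), and RBCS2B (-1.94) and RBCS3B (-1.92) fell alike, whereas RBCS1A changed by -0.68 ± 0.30 and did not pass (adjusted p = 0.0542). GAPA (-0.78 ± 0.26, adjusted p = 0.0128) did not pass in edgeR's quasi-likelihood test either, the other 8 did, against 24.4% of all loci lower, and RBCS1B alone was called, against 2.88%. No member was called in the 8 other settings that kept all libraries, so this call rests on a value close to the threshold.

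At Day 6 against Day 4 the 3 B copies were the only members to pass the adjusted p, all lower, against 10.7% of all loci lower and 8.1% higher. RBCS3B had 25.8, 23.1 and 15.4 CPM at Day 6 and 52.7, 71.7 and 57.0 CPM at Day 4 (-1.50 ± 0.33, adjusted p = 0.00139 in edgeR's quasi-likelihood test). RBCS1B changed by -1.26 ± 0.31 (adjusted p = 0.00311) and RBCS2B by -1.20 ± 0.32 (adjusted p = 0.00564). Without replicate 8, 0 of the 10 passed. Day 4 libraries carried replicate numbers 4 to 6 and Day 6 libraries 6 to 8, so day and replicate cannot be fully told apart here. RBCS1A (0.45 ± 0.30, adjusted p = 0.262) and PRK (0.85 ± 0.28, adjusted p = 0.0225) had values above 0 that did not pass.

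The shares of the copies within a library do not depend on the scaling between libraries. RBCS1A made up 41.4%, 42.0%, 47.2%, 43.6% and 42.5% of the summed RBCS counts at Day 0, 45.0%, 38.6% and 44.4% at Day 2, 64.2%, 57.8% and 67.9% at Day 4 and 86.2%, 84.7% and 86.8% at Day 6. Days 0 and 2 overlapped, and Days 4 and 6 each lay apart from all other days. Day 6 shared only replicate number 6 with Days 2 and 4. In replicates 1 to 3 the share was 40.8%, 44.4% and 44.9% in leaf, 41.9%, 46.6% and 33.0% at Day 0 and 92.3%, 95.5% and 89.5% at Day 14. The summed RBCS level changed by only 0.01 ± 0.31 (SE) on the log2 scale between Days 6 and 4, so that the later drop of the B copies was hardly visible in the sum.

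**Figure D3:**
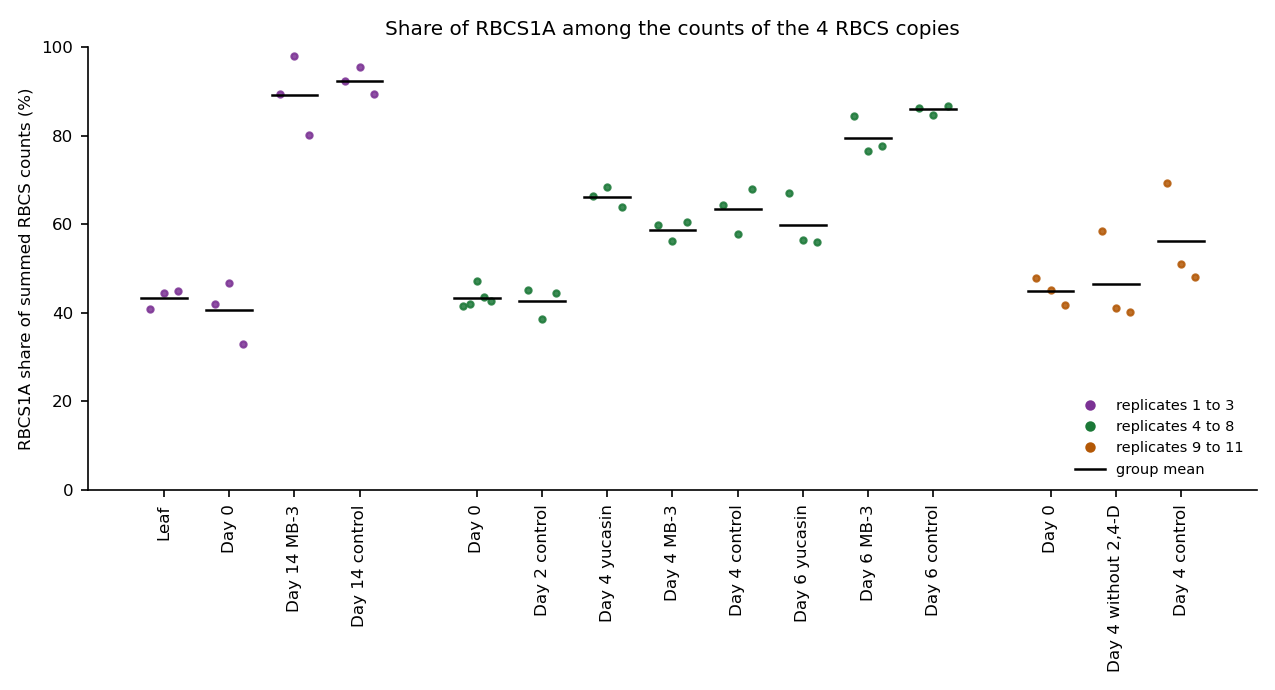
RBCS1A counts as a percentage of the summed counts of the 4 RBCS copies, one point per library coloured by experiment, bars for group means. The share lies between 33.0% and 47.9% in leaf, Day 0 and Day 2 libraries and at 84.7% or more in Day 6 controls, while Day 6 yucasin libraries lie at 55.9% to 67.0%.

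The copies lay furthest apart at Day 14. RBCS1A had 106, 72.2 and 64.7 CPM in Day 14 controls and 923, 518 and 1325 CPM at Day 0 (-3.51 ± 0.55). RBCS1B had 2.25, 0.781 and 2.27 CPM in Day 14 controls and 326, 159 and 725 CPM at Day 0 (-7.86 ± 1.00), a 233-fold difference. The Day 14 levels of RBCS1B rest on 15 to 45 counts per library, and their precision is limited accordingly.

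RBCS2B and RBCS3B behaved as RBCS1B did, at -7.37 ± 1.03 and -8.15 ± 1.25 in Day 14 controls against Day 0. Of the 10 members 9 were called lower in this comparison, against 13.5% of all loci, and all 10 passed the adjusted p alone, against 27.7%. GAPA was the exception to the fold, at -1.82 ± 0.33, with 58.5, 74.2 and 67.5 CPM at Day 14 and 269, 149 and 288 CPM at Day 0. CFBP1 (-3.62 ± 0.44), RCA (-3.23 ± 0.51), GAPB (-3.22 ± 0.42), SBPASE (-2.77 ± 0.44) and PRK (-2.09 ± 0.48) lay between. With scaling by total counts 5 of the 10 were called.

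Against leaf, all 10 were called lower in Day 14 controls, against 12.1% of all loci, and remained so without each replicate in turn. RBCS1B was 1657-fold lower (-10.69 ± 1.105) and GAPA 13.5-fold lower (-3.75 ± 0.36). RBCS1A, at 90.6-fold lower (-6.50 ± 0.63), was closer to CFBP1 (-6.27 ± 0.49) and RCA (-6.07 ± 0.59) than to its own family members.

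The balance between partner genes shifted during culture as well. GAPA made up 58.1%, 55.8%, 55.3%, 54.5% and 54.3% of the summed GAPA and GAPB counts at Day 0, 66.1%, 63.8% and 67.6% at Day 2, 73.2%, 69.9% and 72.4% at Day 4 and 77.0%, 74.7% and 76.7% at Day 6. The share was higher at each later day with no overlap between days, although Day 6 shared only replicate number 6 with Days 2 and 4. In Day 14 controls it was 72.6%, 78.7% and 76.4%, against 59.6%, 59.8% and 48.7% at Day 0 of the same experiment and 48.9%, 52.2% and 54.1% in leaf. GAPA binds the regulatory protein CP12 and GAPB carries its own regulatory tail, so both contribute to a redox-controlled enzyme.

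The summed RBCS counts were set against the summed counts of the other 6 members in the same library. This log2 ratio was 0.94, 1.57 and 1.40 in leaf, 0.85, 0.89 and 1.17 at Day 0 and -0.56, -1.36 and -1.32 in Day 14 controls of replicates 1 to 3. In replicates 4 to 8 it was 0.47, 0.36, 0.00, 0.33 and 0.04 at Day 0, -0.01, 0.37 and 0.08 at Day 2, -0.16, 0.05 and 0.02 at Day 4 and 0.02, 0.02 and -0.09 at Day 6. The ratio at Day 0 differed between experiments, so it was read only within each of them.

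**Figure D4:**
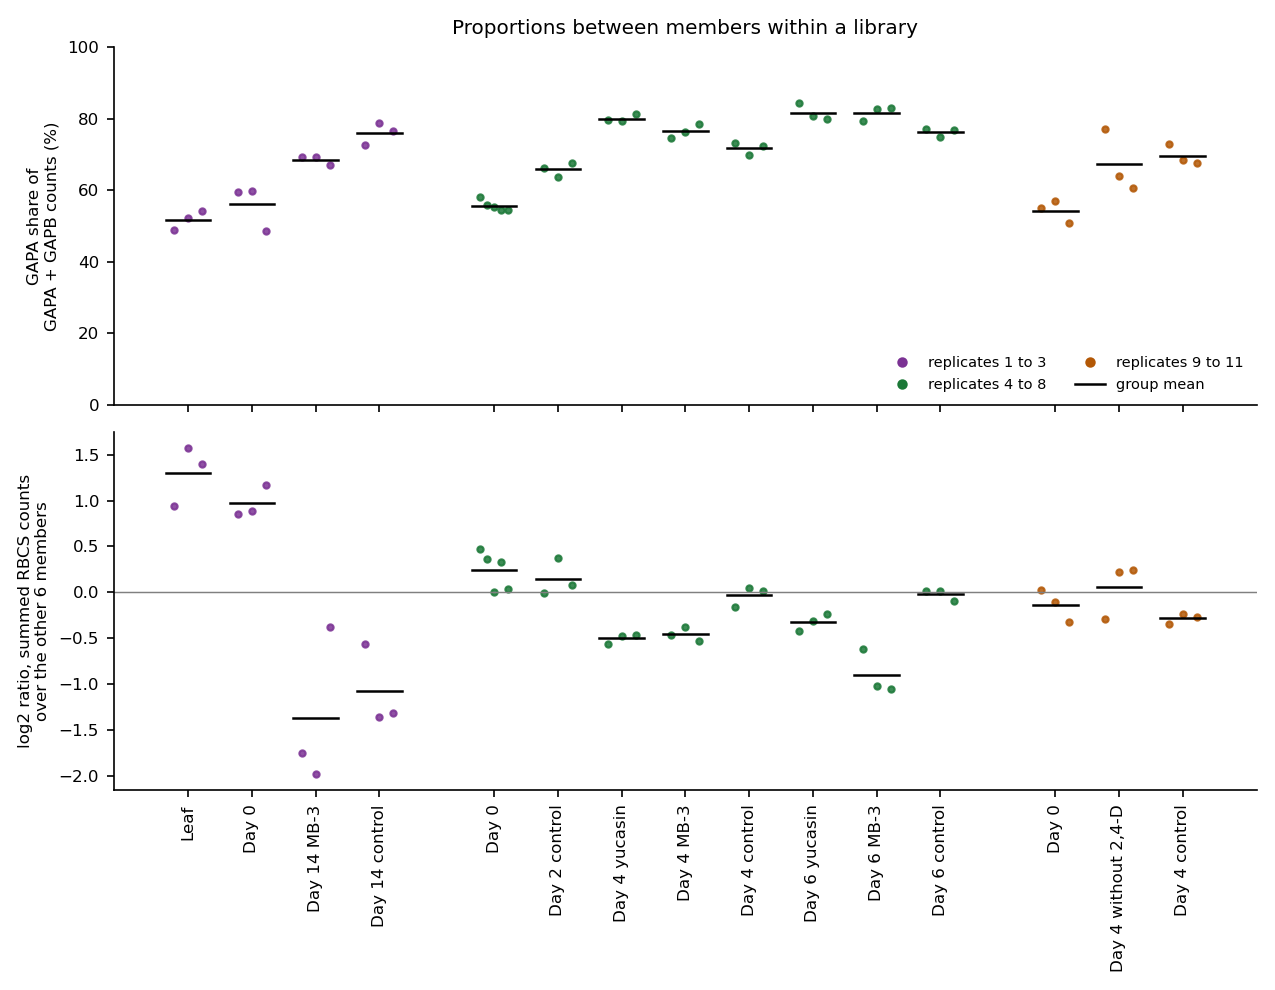
Upper panel, GAPA counts as a percentage of summed GAPA and GAPB counts; lower panel, log2 ratio of summed RBCS counts to the summed counts of the other 6 members, one point per library coloured by experiment and bars for group means. The GAPA share lies at 54.3% to 58.1% at Day 0 of replicates 4 to 8 and at 79.8% to 84.3% in Day 6 yucasin libraries.

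Yucasin was used to ask whether auxin synthesis in the culture was needed for the changes of the cells, and it shares its controls with MB-3. At Day 4, 0 of the 10 passed the adjusted p in edgeR's quasi-likelihood test, against 6.63% of all loci lower and 6.8% higher. The largest value was that of PRK, with 32.3, 23.0 and 34.2 CPM in yucasin cultures and 16.3, 14.5 and 19.9 CPM in controls (0.82 ± 0.28, adjusted p = 0.0383). The RBCS copies lay between -0.34 ± 0.32 (RBCS3B) and 0.14 ± 0.31 (RBCS2B). At an unadjusted p under 0.05 PRK and GAPA (0.60 ± 0.26, adjusted p = 0.0962) passed, and 0 passed the adjusted p with DESeq2.

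At Day 6 RBCS1A was lower and RBCS1B higher in yucasin cultures than in controls, but neither passed when replicate 6, 7 or 8 was left out. RBCS1A had 119.7, 153 and 121 CPM in yucasin cultures and 334, 281 and 217 CPM in controls (-1.08 ± 0.30, adjusted p = 0.00403 in edgeR's quasi-likelihood test). RBCS1B had 17.6, 32.0 and 26.0 CPM in yucasin cultures and 14.1, 14.2 and 8.97 CPM in controls (1.02 ± 0.31, adjusted p = 0.00766). Neither gene overlapped in range between the groups. RBCS2B (0.99 ± 0.32, adjusted p = 0.0113) and RBCS3B (0.97 ± 0.33, adjusted p = 0.0147) had like values that did not pass. Both did so with the Wald test of DESeq2 (adjusted p = 0.00448 and 0.00645).

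PRK and SBPASE were lower with yucasin at Day 6. PRK had 10.14, 13.0 and 11.8 CPM in yucasin cultures and 42.0, 27.9 and 21.5 CPM in controls (-1.39 ± 0.30, adjusted p = 0.000329). SBPASE had 10.4, 15.6 and 14.2 CPM in yucasin cultures and 25.4, 22.3 and 19.6 CPM in controls (-0.75 ± 0.20, adjusted p = 0.00254). No range overlapped for either gene. RCA (-0.07 ± 0.27) and GAPA (-0.01 ± 0.26) had values near 0, and CFBP1 (-0.73 ± 0.30, adjusted p = 0.0434) and GAPB (-0.49 ± 0.32, adjusted p = 0.192) did not pass.

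In all, 3 of the 10 were lower and 1 higher by adjusted p with yucasin at Day 6, against 22.6% of all loci lower and 24.7% higher, which is near the background, and 0 were called, against 5.4% lower and 7.5% higher. Leaving out replicate 6, 7 or 8 gave 2 members past the adjusted p in each case. With scaling by total counts, which moved the median of all loci by -0.48, RBCS1B was at 0.53 and did not pass (adjusted p = 0.105). Under that scaling 5 of the 10 passed the adjusted p, all of them lower, so the directions depend on the scaling. The shares within a library are free of that choice. RBCS1A made up 67.0%, 56.4% and 55.9% of the RBCS counts in yucasin cultures and 86.2%, 84.7% and 86.8% in controls, without overlap, whereas at Day 4 it made up 66.4%, 68.3% and 63.8% in yucasin cultures and 64.2%, 57.8% and 67.9% in controls, with overlap.

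The effect of yucasin on PRK differed between the days. The effect at Day 6 minus that at Day 4 was -2.21 ± 0.41 on the log2 scale (adjusted p = 0.000563 in edgeR's quasi-likelihood test) and was called, against 0.662% of all loci in that direction. The other 9 did not pass this test of the difference, which 3.75% of all loci passed lower and 8.47% higher, the nearest being RBCS3B (1.31 ± 0.46, adjusted p = 0.0412) and RBCS1A (-1.11 ± 0.43, adjusted p = 0.0601). The GAPA share of GAPA and GAPB was 79.5%, 79.2% and 81.2% with yucasin and 73.2%, 69.9% and 72.4% in controls at Day 4, and 84.3%, 80.7% and 79.8% with yucasin and 77.0%, 74.7% and 76.7% in controls at Day 6. The groups did not overlap on either day.

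Summed levels of markers of other cell types differed with yucasin at Day 6. The summed level of the 5 guard cell markers was 64.9 to 71.9 CPM in yucasin cultures and 8.3 to 15.8 CPM in controls, with all 5 higher by adjusted p and none at 0. The 6 epidermis markers summed to 27.6 to 40.9 CPM in yucasin cultures and 5.1 to 8.1 CPM in controls, and 1 of them was at 0 in every library of each group. The 9 vascular markers summed to 256 to 292 CPM in yucasin cultures and 158 to 170 CPM in controls, with 1 of them at 0 in every yucasin library. The epidermis and vascular sums can rest on few loci of their lists. The 10 mesophyll markers summed to 712 to 1270.0 CPM and 569.5 to 849 CPM, with 3 higher and 0 lower. RBCL, the plastid gene for the large subunit, had 897 to 949 CPM in yucasin cultures and 146 to 180.4 CPM in controls (2.54 on the log2 scale), while summed RBCS changed by -0.54 ± 0.31. Within some other groups the RBCL level varied widely, from 187 to 1399 CPM in leaf and from 238 to 975 CPM in Day 6 MB-3 cultures. Whether RBCL and summed RBCS responded differently to yucasin was not tested. The part of the markers or of RBCL in the values of the members was not tested either.

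MB-3 was used to ask what histone acetylation contributes. At Day 4, 0 of the 10 passed in edgeR's quasi-likelihood test, against 2.23% of all loci lower and 0.83% higher, with values from -0.38 ± 0.30 (RBCS1A) to 0.45 ± 0.28 (CFBP1). RBCS1A had 155, 167 and 143 CPM with MB-3 and 183, 192 and 233 CPM in controls, and the ranges did not overlap. At an unadjusted p under 0.05, 0 passed, and 0 passed the adjusted p with DESeq2.

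At Day 6 RBCS1A and SBPASE were lower with MB-3 than in controls, 2 of the 10 against 7.25% of all loci lower and 9.54% higher. RBCS1A had 199.9, 97.7 and 75.004 CPM with MB-3 and 334, 281 and 217 CPM in controls (-1.16 ± 0.31, adjusted p = 0.00598 in edgeR's quasi-likelihood test). SBPASE had 15.6, 13.8 and 10.7 CPM with MB-3 and 25.4, 22.3 and 19.6 CPM in controls (-0.76 ± 0.20, adjusted p = 0.00534). The ranges of both genes lay apart. Neither passed without replicate 7 or without replicate 8, SBPASE did not pass without replicate 6 either, and neither passed in a fit of these 2 groups alone (adjusted p = 0.0397 and 0.0114).

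Epidermis markers moved with MB-3 as well. The 6 summed to 17.2 to 58.6 CPM with MB-3 and 5.1 to 8.1 CPM in controls at Day 6, where 1 of the 3 tested was higher (LTP1) and PDF1 was at 0 in every library of both groups. They summed to 23.3 to 32.1 CPM with MB-3 and 7.1 to 7.7 CPM in controls at Day 4, and to 111 to 127 CPM with MB-3 and 8.5 to 15.1 CPM in controls at Day 14, with 2 of the 5 tested higher (LTP1 and CER1). Vascular markers summed to 206 to 284 CPM with MB-3 and 158 to 170.4 CPM in controls at Day 6, with 1 of the 7 tested higher and 2 lower. These markers are named after their values were seen, and their part in the values of the members was not tested.

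The MB-3 library of replicate 6 stood above the other 2 for all 10 genes at Day 6, as for PRK (31.4 CPM, against 14.6 and 12.1), and its RBCL level was 975 CPM, against 238 and 242 CPM. Unlike yucasin, MB-3 gave the B copies values below 0 at Day 6, namely -0.71 ± 0.33 for RBCS1B, -0.79 ± 0.35 for RBCS2B and -0.56 ± 0.34 for RBCS3B, none of which passed (adjusted p from 0.0918 to 0.234). RBCS1A made up 84.4%, 76.6% and 77.6% of the RBCS counts with MB-3 and 86.2%, 84.7% and 86.8% in controls. No member passed the test of the difference between the MB-3 effects at Days 6 and 4 in edgeR's quasi-likelihood test, against 0.0945% of all loci lower and 1.24% higher, and PRK (-0.97 ± 0.40, adjusted p = 0.215) alone had an unadjusted p under 0.05.

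The GAPA share of GAPA and GAPB was 74.5%, 76.2% and 78.5% with MB-3 and 73.2%, 69.9% and 72.4% in controls at Day 4, and 79.2%, 82.7% and 82.9% with MB-3 and 77.0%, 74.7% and 76.7% in controls at Day 6. On both days MB-3 lay above the controls without overlap. At Day 14 it lay below them without overlap, with 69.2%, 69.3% and 67.2% in MB-3 cultures and 72.6%, 78.7% and 76.4% in controls. The log2 ratio of RBCS to the other members was -0.62, -1.02 and -1.06 with MB-3 at Day 6, below the controls at 0.02, 0.02 and -0.09. With yucasin it was -0.42, -0.32 and -0.24 at Day 6. The same controls entered both comparisons.

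**Figure D5:**
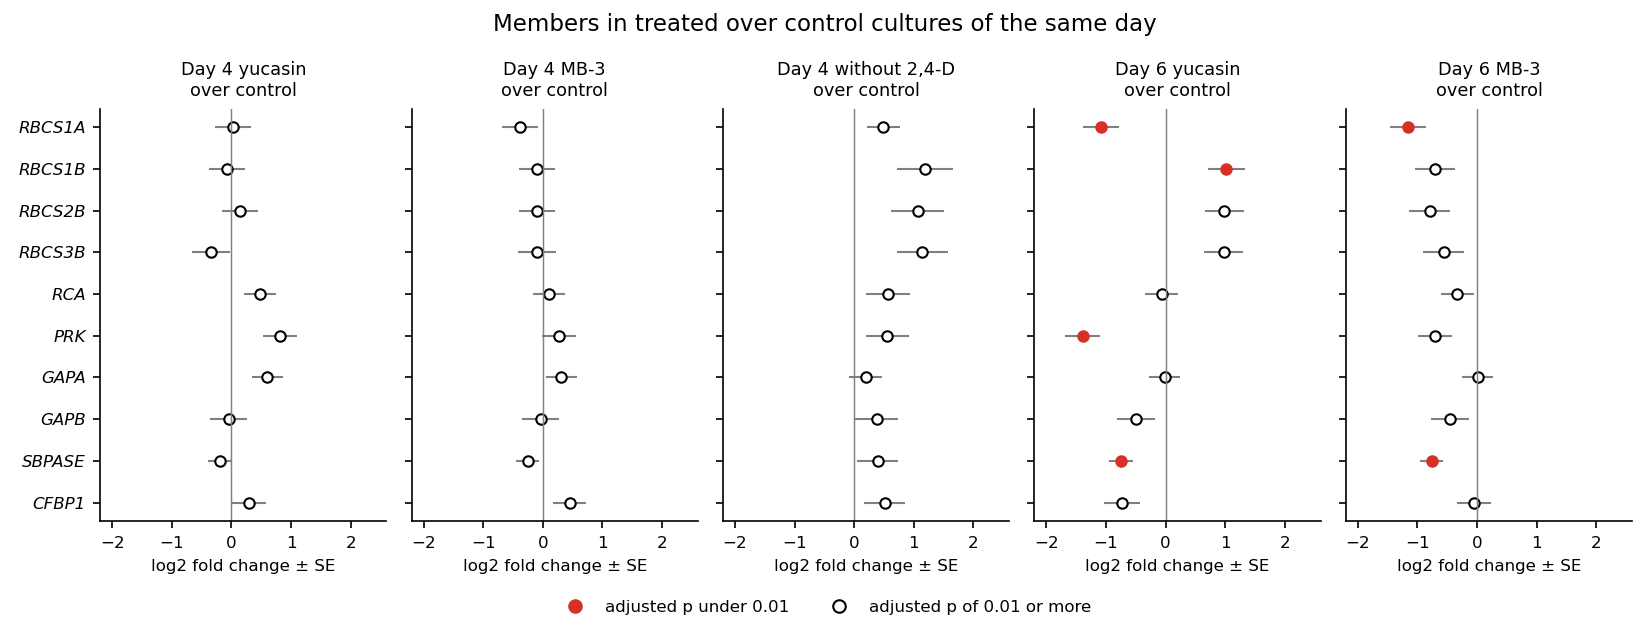
Log2 fold change of each member with its SE in treated cultures over controls of the same day, one panel per comparison; filled red points had an adjusted p under 0.01 and open points did not. In the Day 6 yucasin panel RBCS1A, PRK and SBPASE lie left of 0 (-1.08, -1.39 and -0.75) and the B copies right of it (0.97 to 1.02).

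At Day 14, 0 of the 10 differed between MB-3 cultures and controls by the adjusted p of edgeR's quasi-likelihood test, against 4.64% of all loci higher and 5.71% lower. CFBP1 came closest, with 9.07, 14.9 and 17.8 CPM in MB-3 cultures and 5.95, 3.02 and 3.63 CPM in controls (1.78 ± 0.42, adjusted p = 0.01). GAPB (1.24 ± 0.40, adjusted p = 0.0404) and GAPA (0.69 ± 0.32, adjusted p = 0.139) did not overlap in range either. At an unadjusted p under 0.05 CFBP1 and GAPB passed, and 2 members passed the adjusted p with DESeq2.

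The RBCS copies at Day 14 depended on 1 library. RBCS3B had 3.07, 0.707 and 32.6 CPM in MB-3 cultures and 4.10, 1.302 and 3.23 CPM in controls, so that replicate 3 of MB-3 stood far above all other Day 14 libraries. Its log2 fold change was 2.13 ± 1.00 (adjusted p = 0.146) with all libraries and -0.51 without replicate 3, and the other 3 RBCS copies and SBPASE also changed sign without it. Against Day 0, MB-3 cultures had 6 of the 10 called lower, against 13.8% of all loci, and 9 passed the adjusted p alone, against 27.1%, with RBCS1B at -6.67 ± 0.94 and GAPA at -1.12 ± 0.32.

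Cultures without 2,4-D asked what the added auxin contributed by Day 4. RBCS1B had 22.4, 64.5 and 75.2 CPM without 2,4-D and 14.5, 24.2 and 32.6 CPM in controls. RBCS3B had 55.3, 129 and 144 CPM without 2,4-D and 31.5, 49.2 and 67.7 CPM in controls. Each library without 2,4-D was above the control of the same replicate number, although the ranges overlapped. RBCS1A had 138, 173 and 184 CPM without 2,4-D and 135, 100.1 and 118 CPM in controls, with ranges just apart.

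In the fit without pairing 0 of the 10 passed in edgeR's quasi-likelihood test, against 1.82% of all loci higher, with RBCS1B at 1.19 ± 0.48 (adjusted p = 0.0903), RBCS2B at 1.06 ± 0.44 (adjusted p = 0.0985), RBCS3B at 1.15 ± 0.43 (adjusted p = 0.077) and RBCS1A at 0.49 ± 0.27 (adjusted p = 0.192). In a fit with pairing by replicate number (a replicate block), RBCS1B (1.103, adjusted p = 0.0072) and RBCS3B (1.105, adjusted p = 0.00569) passed. Without replicate 9 all 3 B copies passed, with 1.12 to 1.23. At an unadjusted p under 0.05 the 3 B copies alone passed in the fit without pairing, and 0 members passed the adjusted p with DESeq2. The other members lay between 0.19 (GAPA) and 0.56 (RCA) and did not pass.

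Marker lists differed between these cultures too. The 9 vascular markers summed to 37.6 to 68.7 CPM without 2,4-D and 171 to 247 CPM in controls, with 3 of the 6 tested lower (SUC2, ATHB8 and AHA3) and APL and ATHB8 at 0 in every library without 2,4-D. The 5 guard cell markers summed to 35.04 to 64.7 CPM without 2,4-D and 13.7 to 40.8 CPM in controls, and the 10 mesophyll markers to 739 to 853 CPM and 519 to 713 CPM, with 0 of either list past the adjusted p of edgeR's quasi-likelihood test. These markers too are named after their values were seen, and their part in the values of the B copies was not tested.

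Relative to Day 0, cultures without 2,4-D still had lower levels of all 10 genes by adjusted p, against 20.6% of all loci, and 5 of the 10 were called, against 6.15%. Scaled by total counts, 0 were called and 5 passed the adjusted p of edgeR's quasi-likelihood test. RBCS1B stood at -1.81 ± 0.48 and RBCS1A at -1.93 ± 0.28, so that the copies had declined to a like extent. RBCS1A made up 58.5%, 41.0% and 40.1% of the RBCS counts without 2,4-D, 69.2%, 51.1% and 48.2% in controls of the same replicates and 47.9%, 45.1% and 41.7% at Day 0. The share was lower without 2,4-D than in the control of the same number in each of the 3 pairs, although the ranges overlapped. Without replicate 10, 1 of the 10 passed the adjusted p against Day 0.

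The other genes of carbon fixation followed the members only in part. For Day 6 controls against Day 0, the counts by adjusted p below are to be read against 35.9% of all loci lower and 45.4% higher. Of 13 further Calvin cycle loci, 10 were lower and 1 was higher at Day 0 than in leaf by adjusted p, against 33.2% of all loci lower, but only 4 were lower and 4 higher in Day 6 controls than at Day 0, with a median of 0.05 against 0.34 over all loci and -2.93 over the members. TKL1, a transketolase, stood at 0.51 in Day 6 controls against Day 0. Named after their values were seen, FBA2 (-4.75 at Day 6 and -7.42 at Day 14, both against Day 0) had changes of the size of the B copies, and FBA3 stood at 2.44 and 2.55 in these comparisons, so that chloroplast aldolase genes moved in opposite directions.

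Of 10 loci for CP12 and thioredoxins, which control the activity of Calvin cycle enzymes in light, 8 were lower and 0 higher in Day 6 controls than at Day 0. Of 16 photorespiration loci 13 were lower and 2 higher, and their median of -3.07 was below that of the members other than RBCS (-2.65). GGT1, a peroxisomal aminotransferase and the photorespiration locus with the highest mean level, stood at -4.22. Of 13 loci for Rubisco assembly and chaperonins 4 were lower and 5 higher, which is near the shares of all loci.

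Of 19 tested regulators of chloroplast and light-responsive genes, 11 were lower and 7 higher in Day 6 controls than at Day 0. GUN1, a chloroplast signalling protein and the regulator with the highest mean level, stood at -1.66. Singled out after their values were seen, GLK1, a transcription factor that promotes chloroplast development, stood at -3.73 and HYH, a G-box binding factor, at -6.33. With yucasin at Day 6, 3 of the 19 were lower and 4 higher than in controls by adjusted p, against 22.6% of all loci lower and 24.7% higher. Also picked after their values were seen, GLK1 (2.39, adjusted p = 2.94e-08 in edgeR's quasi-likelihood test), HYH (2.38, adjusted p = 6.13e-05) and CGA1 (3.16, adjusted p = 0.00731), a GATA factor of chloroplast development, were among those higher, while GBF2 (-1.48) and GBF3 (-1.85), G-box binding factors, were among those lower. These are levels of transcripts and their relation to the members was not tested.

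Over the 15 means of group within experiment, the profiles of RBCS1B and RBCS2B were the most alike of all member pairs (Pearson r = 0.999, n = 15 means), as far as shared reads allow, and those of RBCS3B and PRK the least alike (r = 0.827). Among 11283 nuclear non-member loci, those closest to the mean RBCS profile were PTAC16, GAMMA-TIP, OEP6, PSAH-1 and COR413IM1, with r from 0.977 to 0.983. Closest to the mean of the other 6 members were 2-Cys Prx B, FNR1, THM1, AT1G64680 and PSAF, with r from 0.987 to 0.994. All points of these correlations share libraries and scaling, and the leaf and Day 0 means carry most of the spread.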

How the data were processed

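The authors prepared stranded mRNA libraries, sequenced single-end reads and mapped them with Bowtie 0.12.9 to TAIR10; the study's methods speak of uniquely mapped reads, but whether the counts hold these alone, read trimming and the source of the gene models are not given in the sources used here. The deposited values are raw read counts per splice variant without normalization. The lowest-numbered variant of each locus was used, and counts of variant 1 summed to 101.9% to 104.7% of the mapped reads. The labels name no experiment, and 3 were inferred from the replicate numbers and the differing entry lists, which hold 36081, 33565 and 32648 entries. They were fitted separately with all their groups.

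Counts were filtered with filterByExpr, scaled by TMM and tested with edgeR 4.0.16 in R 4.3.3, with p-values adjusted over all loci by the Benjamini-Hochberg method. Each standard error was obtained by dividing the absolute log2 change by the root of its F statistic. Differences between experiments came from a joint fit of 15 group means. Alternatives were scaling by total counts or by the size factors of DESeq2 1.42.0, the DESeq2 test, no filter, a replicate block, all variants summed, nuclear loci alone, the groups compared alone, and leaving out each replicate in turn. The last was also applied to the ratios within a library, which was chosen after seeing the data. The members and lists were chosen with earlier results of these data known. All 10 members are named. Of other lists, the loci with the highest and lowest mean level could be named, and the closest profiles were the 5 highest Pearson r of log2(CPM + 1) among loci with a mean of at least 10 CPM. Sequences are from RefSeq TAIR10.1, and the files give no coordinates.

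The labels give replicate numbers but not the origin of replicates, which the study's methods call biological. Deviations of libraries with the same number from their group means correlated across loci at 0.54, 0.39 and 0.25 between cultures without 2,4-D and controls, at 0.14 to 0.36 for yucasin and 0.18 to 0.41 for MB-3 at Day 4, and at 0.21 to 0.33 for MB-3 at Day 6. These numbers were taken to pair the samples, and those of the other comparisons were not. Day 4 against Day 2 controls, at 0.08, 0.23 and 0.29, partly overlapped the values taken as pairing. A count of 3 corresponds to 0.152 to 0.667 CPM, a limit that covers counting error only.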

Additional observations from a re-analysis of the deposited data

Results flagged for a closer look

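The effect of yucasin on PRK differed between the sampling days: the log2 fold change against control at Day 6 minus that at Day 4 was -2.21 (SE 0.41, adjusted p = 0.000563 in edgeR's quasi-likelihood test, 3 libraries per group). PRK had a value of -1.39 ± 0.30 at Day 6 and 0.82 ± 0.28 at Day 4. All 3 yucasin libraries lay below all controls at Day 6 and above all controls at Day 4, and the comparison at Day 4 alone did not pass (adjusted p = 0.0383). Without replicate 6, the only number that both days share, the difference still passed the adjusted p but fell below the fold of the call.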

How the results depend on the processing

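The direction of 32 of 2240 log2 fold changes of members under alternative settings was reversed, most of them values close to 0. The cause was not tested. Leaving out each replicate in turn gave, for MB-3 against control at Day 14, -0.39 to 1.12 (RBCS1A), -0.41 to 1.64 (RBCS1B), -0.92 to 1.905 (RBCS2B), -0.51 to 2.82 (RBCS3B) and -0.075 to 0.44 (SBPASE), with the lowest value without replicate 3. It gave, for Day 4 yucasin, -0.098 to 0.15 (RBCS1A), -0.25 to 0.21 (RBCS1B), -0.020 to 0.46 (RBCS2B) and -0.19 to 0.056 (GAPB), for Day 6 yucasin -0.21 to 0.12 (RCA) and -0.19 to 0.085 (GAPA), for Day 4 MB-3 -0.16 to 0.065 (GAPB) and for Day 6 MB-3 -0.11 to 0.059 (GAPA). With scaling by total counts, GAPA was at 0.17 for Day 14 MB-3 against Day 0, -0.12 for Day 6 MB-3 and -0.099 without 2,4-D, both against control. RBCS1A (-0.12) and RBCS2B (-0.0085) turned for Day 4 yucasin, and RBCS1A (0.089), RCA (0.057), PRK (0.028) and SBPASE (0.13) for the difference between experiments. For Day 4 yucasin, RBCS1A was also at -0.0049 with the DESeq2 size factors, -0.0048 with the DESeq2 test and -0.017 with nuclear loci alone. For Day 6 MB-3, GAPA was at -0.0248 with the DESeq2 size factors, -0.018 with no filter, -0.0238 with the DESeq2 test, -0.0246 with nuclear loci alone and -0.0046 with all variants summed. With a replicate block SBPASE was at -0.070 for Day 6 against Day 4.

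Of 224 counts of called members under alternatives 27 moved, as did 27 of 224 counts past the adjusted p alone. With scaling by total counts 5 were called for Day 14 controls, 3 for Day 14 MB-3, 4 for Day 4 of replicates 4 to 8, 1 for Day 4 of replicates 9 to 11 and 0 for cultures without 2,4-D, all against Day 0, and 4 (Day 14 MB-3) and 5 (without 2,4-D) passed the adjusted p. For MB-3 against control at Day 14, 2 passed it with DESeq2 or the groups alone and 1 with total counts, the DESeq2 size factors, no filter, all variants summed or nuclear loci alone. For Day 2 against Day 0, 1 was called with the DESeq2 size factors, the DESeq2 test or all variants summed. For Day 4 against Day 2, 0 were called under every alternative that kept all libraries. With the groups alone 1 passed the adjusted p for Day 4 yucasin and 0 for Day 6 MB-3. With total counts 2 passed it for the difference between the yucasin effects. For cultures without 2,4-D against Day 0, 3 were called with nuclear loci or the groups alone.

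With the replicate block, 2 members (RBCS1B and RBCS3B) passed the adjusted p for cultures without 2,4-D against control. In the other comparisons whose numbers pair the samples the block changed no call. Where numbers were not taken to pair the samples, it gave 9 called for Day 6 against Day 0, 9 for Day 0 against leaf, 8 for Day 14 controls against Day 0, 4 for cultures without 2,4-D against Day 0 and 0 for Day 4 against Day 2. For Day 4 against Day 2, 9 members passed the adjusted p with the block, against 8 in the main fit. The block also gave 1 (CFBP1) past the adjusted p for MB-3 at Day 14 against control, and RBCS2B and RBCS3B also passed for yucasin at Day 6.

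Leaving out each replicate in turn gave 3 to 10 called and 4 to 10 past the adjusted p for Day 0 against leaf, 5 to 8 and 5 to 9 for Day 14 MB-3 against Day 0, 0 to 5 called for Day 2 against Day 0, 0 to 3 and 3 to 8 for Day 4 against Day 2, 0 to 3 past the adjusted p for Day 6 against Day 4, 2 to 2 for Day 6 yucasin, 0 to 1 for Day 6 MB-3, 0 to 1 called for the difference between the yucasin effects, 0 to 3 past the adjusted p for cultures without 2,4-D against control, and 1 to 4 and 1 to 10 for these against Day 0. With all variants summed, the RBCS1A share moved by less than 1 SD in each group, while leaving out a replicate cannot move a group mean by 1 SD and is no check of the ratios within a library. Depth limits the B copies at Day 14, which rest on a few counts in some libraries.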
